A study of Mus musculus with 14 samples.

Results

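The genes examined were 10 that mark or specify the endothelium from which blood arises. They were Kdr, Flt1, Tek, Tie1, Cdh5, Pecam1, Etv2, Sox7, Sox17 and Sox18, among 21774 protein-coding genes. For each gene, the RefSeq span on the mouse GRCm38 genome was extended by 20 kb on each side, and every transcription factor (TF) binding site, or peak, that overlapped this window was collected. Of 158488 peaks, 137 lay in the 10 windows, which is 0.0864%. A gene is called bound in a list when at least 1 peak overlapped its window.

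The peaks were mapped by ChIP-seq, in which DNA crosslinked to a protein is pulled down with an antibody and sequenced, in cells differentiated in culture from 1 mouse embryonic stem cell line of strain 129 that carries a GFP reporter in the Brachyury gene. Mesoderm (MES) was sorted as GFP+ Flk1- cells and hemangioblasts (HB) as GFP+ Flk1+ cells. Hemogenic endothelium (HE) was sorted as Tie2+ cKit+ CD41- cells, hematopoietic progenitors (HP) as CD41+ cells and macrophages (MAC) as CD11b+ cells. C/EBPβ was mapped at all 5 stages, ELK4 in MES, GATA2 in HB and HP, GATA1 and GFI1B in HP, and RUNX1 and PU.1 in HP and MAC. Further factors that the study mapped at these stages were not analysed here. Each of these 14 combinations was 1 list without a replicate, so no difference between lists could be set against a replicate spread. The lists ran from 72 peaks (MAC RUNX1) to 82866 (MAC PU.1), every peak was 400 bp wide, and no peak height was used. Because the cutoff was chosen separately for each list, a gene without a peak was a gene where no site passed that cutoff.

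Endothelial cells are maintained by the vascular endothelial growth factor (VEGF) receptors Flk1 (encoded by Kdr) and Flt1, by the angiopoietin receptor Tie2 (encoded by Tek) with its partner Tie1, and by the junction proteins VE-cadherin (Cdh5) and PECAM-1. ETV2 is an ETS factor needed to form the first endothelial and blood progenitors, and SOX7, SOX17 and SOX18 are the SoxF factors of the endothelium. When hemogenic endothelium turns into blood, cells round up and shut down this programme, while RUNX1, GFI1B and PU.1 act on the blood side. Flk1 was used to sort MES (Flk1-) from HB (Flk1+), and Tie2 was used to sort HE. The absence of Flk1 on MES, its presence on HB and the presence of Tie2 on HE are therefore part of the design.

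The sites on which the account rests are shown first, as the GRCm38 sequence in RefSeq of the central 200 bp of a bound region, read in the direction of transcription of the gene. A region is a stretch of overlapping peaks of any lists, and its position is given from the start site of the curated RefSeq transcripts, with negative values upstream. Capitals mark matches, on either strand, to GAGGAAGT for PU.1, TTGCNNAA for C/EBP, AGATAA for GATA factors, TGTGGTT for RUNX, AATCNNNGC for GFI1B or TGANTCA for AP-1, which was not mapped here. CCGGAAGT for ELK4 was searched as well, and it shares its last 6 letters with the PU.1 consensus. A match describes the letters and does not show which factor occupied them.

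The first pair are the Flt1 regions that C/EBPβ held at more than 1 stage. Each contains the C/EBP consensus.
Flt1 -1159 bp (chr5:147727071-147727270, minus strand): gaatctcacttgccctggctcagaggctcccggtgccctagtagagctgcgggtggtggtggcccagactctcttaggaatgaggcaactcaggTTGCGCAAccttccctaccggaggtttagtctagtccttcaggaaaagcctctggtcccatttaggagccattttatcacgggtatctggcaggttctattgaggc
Flt1 91496 bp (chr5:147634416-147634615, minus strand): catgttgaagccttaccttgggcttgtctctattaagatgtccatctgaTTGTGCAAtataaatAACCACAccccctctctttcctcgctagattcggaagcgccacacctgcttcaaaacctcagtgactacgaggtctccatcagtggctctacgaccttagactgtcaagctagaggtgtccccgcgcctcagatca

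The next 3 are the regions where GATA2 was found in HP. The Kdr region lies in intron 10 and was shared with PU.1, and the Flt1 regions, in introns 10 and 1, were shared with GFI1B. The Kdr sequence and the first Flt1 sequence contain the GATA consensus, and the second Flt1 sequence contains none of the letters searched.
Kdr 16107 bp (chr5:75962249-75962448, minus strand): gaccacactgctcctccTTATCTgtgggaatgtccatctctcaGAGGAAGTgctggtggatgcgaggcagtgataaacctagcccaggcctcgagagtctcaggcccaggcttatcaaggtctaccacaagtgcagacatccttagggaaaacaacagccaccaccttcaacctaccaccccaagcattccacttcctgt
Flt1 67974 bp (chr5:147657938-147658137, minus strand): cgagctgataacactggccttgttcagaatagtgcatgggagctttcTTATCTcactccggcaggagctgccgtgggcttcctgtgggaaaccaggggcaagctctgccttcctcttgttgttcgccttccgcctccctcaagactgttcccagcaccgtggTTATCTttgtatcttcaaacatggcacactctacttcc
Flt1 4391 bp (chr5:147721521-147721720, minus strand): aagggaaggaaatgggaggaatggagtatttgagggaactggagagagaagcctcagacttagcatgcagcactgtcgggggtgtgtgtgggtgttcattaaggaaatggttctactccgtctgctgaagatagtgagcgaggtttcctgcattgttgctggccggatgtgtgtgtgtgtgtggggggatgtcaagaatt

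The region downstream of Sox7 carried GFI1B, RUNX1 and PU.1 in HP and PU.1 in MAC. The Pecam1 regions upstream of the start site carried GFI1B in HP, and PU.1 in HP and MAC with C/EBPβ in MAC, in the order shown.
Sox7 14230 bp (chr14:63957837-63958036, plus strand): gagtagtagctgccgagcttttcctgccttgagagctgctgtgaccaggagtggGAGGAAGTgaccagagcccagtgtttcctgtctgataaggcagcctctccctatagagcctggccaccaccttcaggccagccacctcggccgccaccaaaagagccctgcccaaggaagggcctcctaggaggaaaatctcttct
Pecam1 -273 bp (chr11:106715455-106715654, minus strand): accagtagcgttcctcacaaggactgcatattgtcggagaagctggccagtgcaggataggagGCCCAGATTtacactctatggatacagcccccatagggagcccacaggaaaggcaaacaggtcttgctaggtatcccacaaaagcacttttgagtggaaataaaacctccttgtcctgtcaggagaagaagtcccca
Pecam1 -1567 bp (chr11:106716749-106716948, minus strand): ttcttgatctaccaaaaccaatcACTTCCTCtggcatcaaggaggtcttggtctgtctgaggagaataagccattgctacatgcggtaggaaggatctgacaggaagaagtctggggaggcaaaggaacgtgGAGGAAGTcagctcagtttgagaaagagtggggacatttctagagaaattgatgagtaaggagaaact

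The last pair are sites of PU.1 in HP and MAC at Tie1 and Cdh5. For Tie1 the transcribed part of the region was left out, so that 107 bases upstream of the start site remain. The Cdh5 region lies in intron 1, and the 200 bp shown contain the AP-1 consensus at 2 places, but not GAGGAAGT.
Tie1 -7 bp (chr4:118489850-118489956, minus strand): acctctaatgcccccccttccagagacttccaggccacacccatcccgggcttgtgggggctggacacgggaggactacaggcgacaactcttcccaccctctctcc
Cdh5 9342 bp (chr8:104110868-104111067, plus strand): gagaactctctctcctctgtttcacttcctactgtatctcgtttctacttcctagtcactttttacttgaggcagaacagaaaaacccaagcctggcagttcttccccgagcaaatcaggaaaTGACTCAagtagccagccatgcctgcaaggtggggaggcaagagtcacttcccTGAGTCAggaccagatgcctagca

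The first question was at which stage, and by which factor, the endothelial genes were bound. Of the 140 combinations of gene and list, 32 held a peak, and 16 of these came from the MAC lists of PU.1 and C/EBPβ. In MES, C/EBPβ bound Flt1 only, which is 10.0% of the 10 genes beside 6.47% of all protein-coding genes treated in the same way. ELK4 bound none of them in MES (4.66% of protein-coding genes). Flt1 was again the only gene bound by C/EBPβ in HB (4.24% of protein-coding genes). No gene was bound by GATA2 in HB (0.363%) or by C/EBPβ in HE (0.684%), where the lists held 97 and 132 peaks. AGATAA was in only 15.5% of the HB GATA2 peaks, beside 57.9% of the HP GATA2 list and 17.8% of the MES C/EBPβ list. A peak in the HB GATA2 list, or its absence, is therefore weak evidence of where GATA2 bound.

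Of the 27 peaks before MAC, 24 (88.9%) came from the HP lists, which held 86.8% of all peaks before MAC. PU.1 bound Kdr, Flt1, Tie1, Cdh5, Pecam1 and Sox7 in HP, 6 genes or 60.0%, beside 38.2% of protein-coding genes. GFI1B, a repressor of the endothelial programme, bound Flt1, Pecam1 and Sox7 in HP, or 30.0% beside 11.8%. GATA2 bound Kdr and Flt1 in HP, or 20.0% beside 3.36%. HP C/EBPβ peaks lay in the windows of Flt1 and Etv2, or 20.0% beside 14.8%, and RUNX1 bound Sox7 alone in HP (7.79% of protein-coding genes). GATA1 bound none in HP (1.75%).

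In MAC, PU.1 bound 9 of the 10 genes, all but Sox17, which is 90.0% beside 79.1% of protein-coding genes. C/EBPβ bound 7 of the 10 in MAC, all but Tek, Tie1 and Sox17, or 70.0% beside 73.8%. MAC RUNX1 peaks were in no window (0.478%). The MAC shares therefore lay near those of all protein-coding genes, and with 10 genes the share in a list moves in steps of 10.0%. The windows of these genes were wider (median 70.8 kb) than those of protein-coding genes in general (median 57.2 kb), which raises the number of peaks a window can hold.

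**Figure D1:**
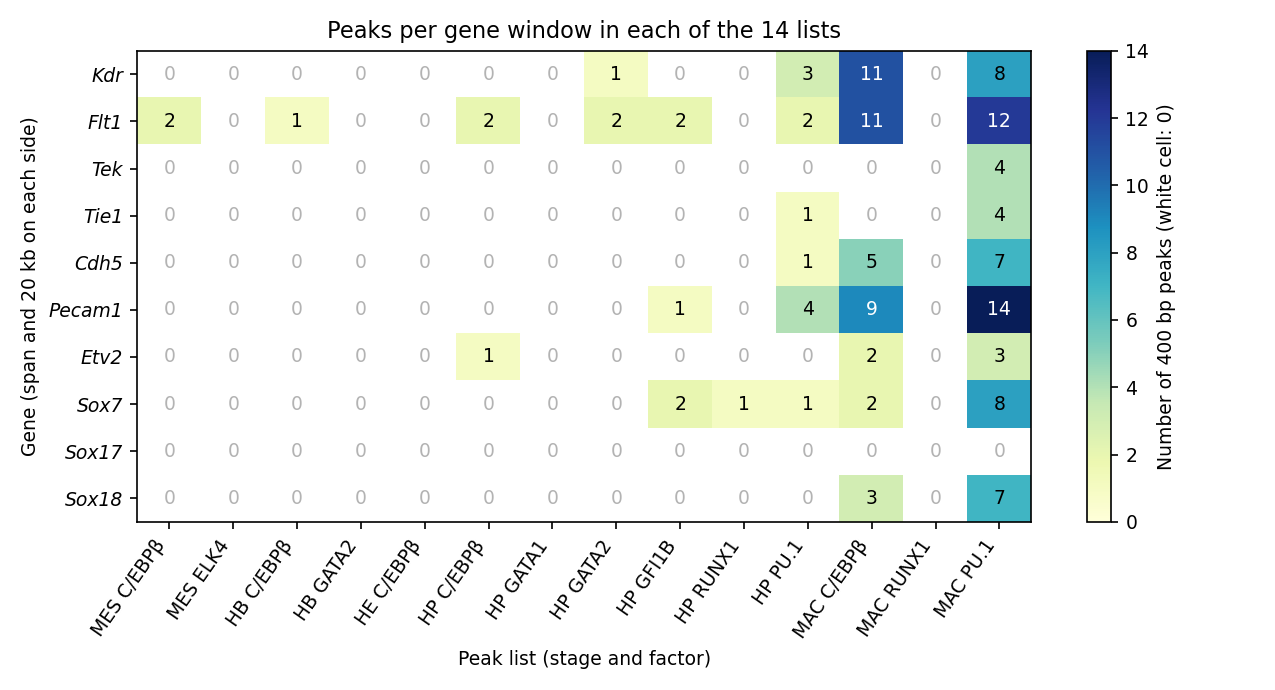
Number of 400 bp peaks in the window of each of the 10 genes (rows) in each of the 14 lists (columns), with white cells for 0. Flt1 was bound in 8 lists, Sox17 in none, and the highest counts were in the MAC columns of PU.1 and C/EBPβ.

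**Figure D2:**
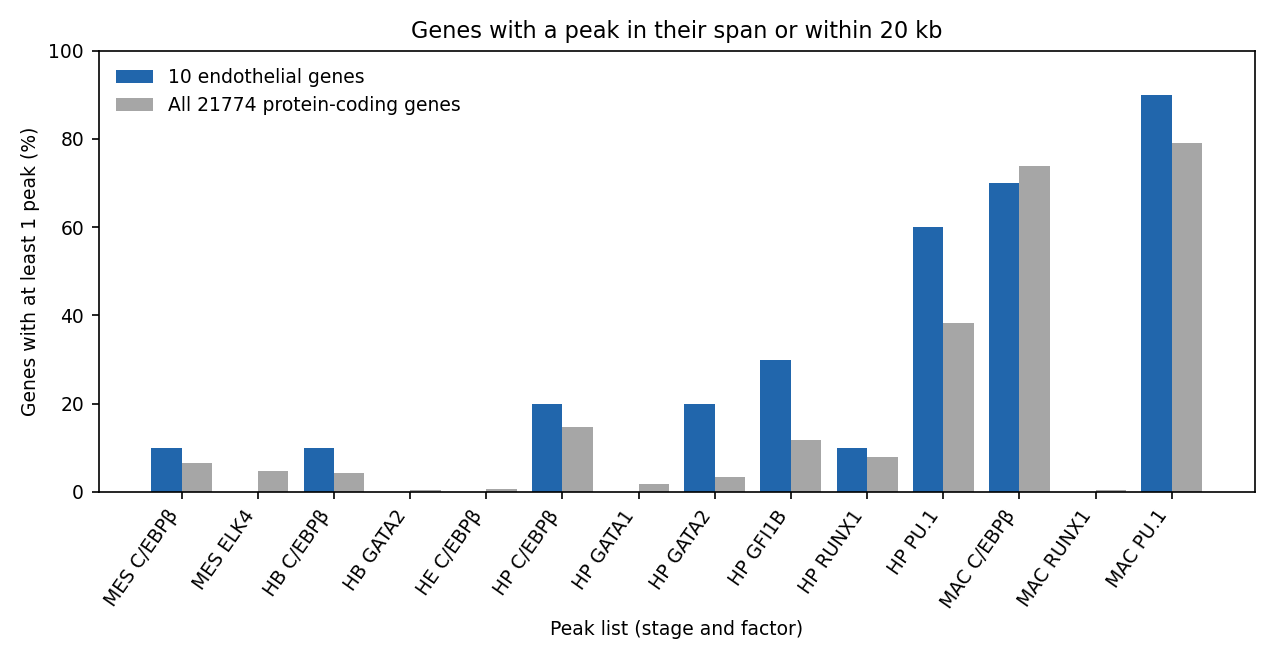
Percentage of genes with at least 1 peak in their span or within 20 kb, for the 10 endothelial genes (blue) and all 21774 protein-coding genes (grey), in each list. The blue bars reach 60.0% for HP PU.1 beside 38.2% in grey, and 70.0% for MAC C/EBPβ beside 73.8%.

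The VEGF receptor genes carried 57 of the 137 peaks. Among the lists used here, Kdr (chr5:75932827-75979072, minus strand) held no peak in MES, HB or HE, like 87.7% of protein-coding genes. Other factors that the study mapped at these stages were not analysed at Kdr. Its product Flk1 separates MES from HB. In HP it held 1 GATA2 peak and 3 PU.1 peaks. The GATA2 peak was centred at 16036 bp in intron 10, and a PU.1 peak was centred at 16107 bp in the same intron. A match to AGATAA lay 10 bp from the centre of the GATA2 peak and a match to GAGGAAGT 54 bp from the centre of the PU.1 peak. An overlap of GATA2 with PU.1 in HP, looked up after it was seen at Kdr, was present at 0.707% of protein-coding genes. The other HP PU.1 peaks of Kdr were centred at 3755 bp, in intron 1, and at -2665 bp, and neither contained GAGGAAGT.

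All 3 HP PU.1 sites of Kdr were found again in MAC, where Kdr held 8 PU.1 peaks and 11 C/EBPβ peaks. The MAC PU.1 peaks ran from -2662 bp to 55597 bp. Those at -889 bp and -1766 bp were in the MAC PU.1 list alone. The sites at 3746 bp and -2662 bp were bound by C/EBPβ as well as PU.1 in MAC, with centres within 18 bp and 9 bp of each other across the 3 lists. At 16107 bp, where GATA2 had been found in HP, MAC kept PU.1 and had no C/EBPβ peak. The 11 C/EBPβ peaks of Kdr were matched or exceeded in number by 3.67% of protein-coding genes, and in number per 100 kb (12.8) by 3.14%. For its 8 PU.1 peaks in MAC these shares were 21.9% and 28.1%. For all 23 peaks of Kdr the nearest coding start site was that of Kdr itself. Predicted transcripts of Kdr start further upstream, so that the peak at -2665 bp was 2048 bp from the nearest annotated start.

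Flt1 (chr5:147561604-147726438, minus strand), whose product binds VEGF and limits signalling by Flk1, was the gene bound in the most lists. It held 34 peaks from 8 lists, a number of lists reached by 0.758% of protein-coding genes and looked up after it was seen here. Its window of 205 kb was the widest of the 10, and 9 of the 34 peaks were nearer to the start of its neighbour Pan3. Of all 27 peaks that the 10 genes held before MAC, 11 were in the window of Flt1.

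At Flt1, C/EBPβ occupied the same site upstream of the gene in MES, HB, HP and MAC. The 4 peaks were centred at -1164 bp, -1158 bp, -1157 bp and -1161 bp, so that their centres spanned 7 bp. The match to TTGCNNAA lay 2 bp, 4 bp, 5 bp and 1 bp from these centres. No peak of another factor overlapped this region. The HE list of C/EBPβ did not include it, and this list had 132 peaks in all. A region held by C/EBPβ in these 4 stages, looked up after it was seen at Flt1, was present in the windows of 2.37% of protein-coding genes. A second C/EBPβ region, at the junction of intron 13 and coding exon 14, was found in MES, HP and MAC but not in HB, at 91448 bp, 91503 bp and 91496 bp. The C/EBP consensus in it was 0 bp, 55 bp and 48 bp from these peak centres.

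GATA2 and GFI1B were found together in HP at 2 places of Flt1. In intron 10, the GATA2 peak was centred at 67929 bp and the GFI1B peak at 67978 bp. In intron 1, they were centred at 4391 bp and 4453 bp. Each pair overlapped a MAC PU.1 peak, at 67974 bp and 4317 bp, but no HP PU.1 peak. The intron 10 region had 2 matches to AGATAA, and neither region had a match to AATCNNNGC. A region with GATA2 and GFI1B in HP, looked up after it was seen at Flt1, was present at 0.606% of protein-coding genes. The HP PU.1 peaks of Flt1 were elsewhere, at -16613 bp and at 183612 bp, the latter inside Pan3. In MAC, Flt1 held 12 PU.1 and 11 C/EBPβ peaks, which for its width is 5.86 and 5.37 per 100 kb, densities reached by 46.8% and 30.7% of protein-coding genes.

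**Figure D3:**
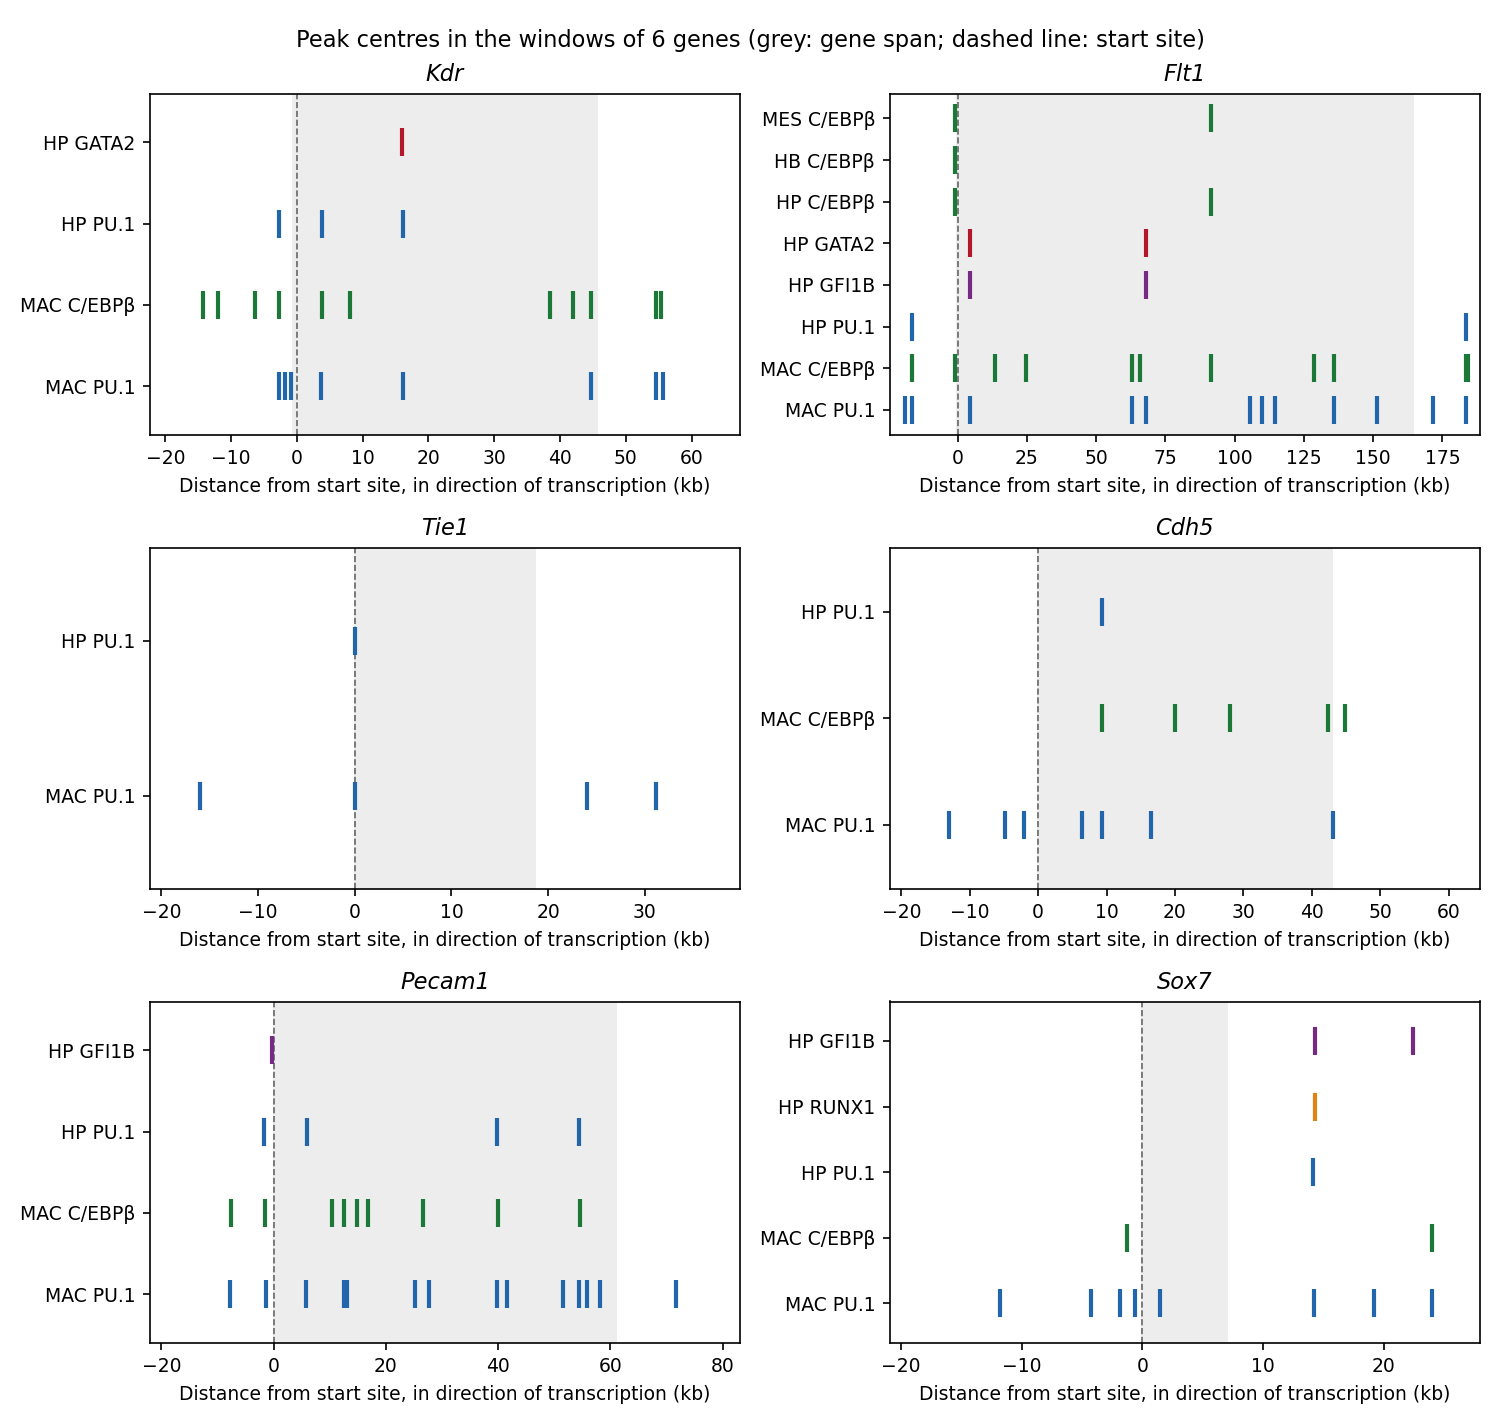
Centres of the peaks in the windows of 6 genes by list, as the distance in kb from the start site in the direction of transcription, with the gene span in grey and the start site as a dashed line. C/EBPβ ticks stand at the same place upstream of Flt1 in MES, HB, HP and MAC, and every HP PU.1 peak shown overlaps a MAC PU.1 peak.

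The genes of the Tie receptors held peaks of PU.1 and of none of the other factors in these 14 lists. Tek (chr4:94739086-94874976, plus strand) held 4 peaks, all of PU.1 in MAC, at 29527 bp, 47505 bp, 90989 bp and 125182 bp. They lay in introns 1, 2, 11 and 19, and the last was nearer to the start of the neighbour Eqtn. Its PU.1 density in MAC was 2.27 per 100 kb, and 68.7% of protein-coding genes were as dense or denser, while 53.0% held as many peaks. The C/EBPβ peak nearest to the Tek start site in MAC was outside the window, at -46822 bp. In HP, the nearest peak of any of the 6 factors was a GFI1B peak at -124579 bp, next to Ift74. None of the lists from MES to HP held a peak in the window of Tek, which encodes the receptor by which HE was sorted, and 48.1% of protein-coding genes were likewise without one.

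Tie1 (chr4:118471191-118489849, minus strand) held 1 HP PU.1 peak and 4 MAC PU.1 peaks. The HP peak was centred at -18 bp and a MAC peak at 3 bp, on the start site itself. This was the HP PU.1 peak closest to the start site of any of the 10 genes. Neither peak contained GAGGAAGT. The MAC peak at -15955 bp contained the PU.1 consensus 1 bp from its centre.

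Of the junction genes, Pecam1 held 28 peaks and Cdh5 13. Pecam1 (chr11:106654213-106715281, minus strand) had the most HP PU.1 peaks of the 10 genes, with 4, a number reached by 2.51% of protein-coding genes and a density reached by 5.02%. They were centred at 54420 bp in intron 14, 39800 bp in intron 13, 5878 bp in intron 2 and -1639 bp upstream. The last contained 2 matches to GAGGAAGT, the nearer 2 bp from its centre, and that at 39800 bp contained a match 17 bp from its centre. All 4 overlapped a MAC PU.1 peak, and all but the site at 5878 bp overlapped a MAC C/EBPβ peak.

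GFI1B was found at Pecam1 in HP at -273 bp, with a match to AATCNNNGC 33.5 bp from the centre. No peak of another list overlapped this site. In MAC, Pecam1 held 14 PU.1 peaks, a number reached by 5.58% of protein-coding genes, and 9 C/EBPβ peaks, a number reached by 6.28%. Per 100 kb of window, 12.7% of protein-coding genes were as dense in PU.1 peaks and 11.9% in C/EBPβ peaks. Of its 28 peaks, 7 were nearer to the start of Tex2 than to that of Pecam1.

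Cdh5 (chr8:104101613-104144504, plus strand) held 1 peak before MAC. This was a PU.1 peak in HP at 9390 bp in intron 1, and in MAC PU.1 (9324 bp) and C/EBPβ (9342 bp) were found at the same place. None of these 3 peaks contained the consensus of its own factor. Cdh5 held 7 PU.1 and 5 C/EBPβ peaks in MAC, and the peak nearest to its start site was a MAC PU.1 peak at -2129 bp. At and beyond the 3′ end of the gene, 3 MAC peaks were nearer to Bean1.

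Of the TFs, Etv2 (chr7:30633616-30636509, minus strand) held 6 peaks, none of which had the Etv2 start site as the nearest. An HP C/EBPβ peak at 21279 bp overlapped a MAC C/EBPβ peak at 21233 bp, and both were nearest to Upk1a. The 3 MAC PU.1 peaks, at 9728 bp, -11412 bp and -14536 bp, were nearest to Cox6b1 in the first case and Rbm42 in the others. No peak lay in the gene itself.

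The SoxF genes differed from each other. Sox7 (chr14:63943706-63950732, plus strand) held 14 peaks from 5 lists, of which 3 were nearer to the start of 4930578I06Rik. Downstream of the gene, PU.1, RUNX1 and GFI1B were found in HP at 14164 bp, 14274 bp and 14303 bp, so that the 3 peaks overlapped, and PU.1 was found there in MAC at 14185 bp. The GAGGAAGT match lay 25 bp from the centre of the HP PU.1 peak and 4 bp from that of the MAC PU.1 peak. The RUNX and GFI1B consensus letters were not in these peaks. A region with these 3 factors in HP, a combination looked up after it was seen at Sox7, was present at 0.335% of protein-coding genes. A second GFI1B peak, at 22396 bp and nearer to 4930578I06Rik, overlapped no peak of another list. In MAC, Sox7 held 8 PU.1 peaks, at -11825 bp, -4255 bp, -1824 bp, -576 bp, 1463 bp, 14185 bp, 19203 bp and 24041 bp. They amounted to 17.0 per 100 kb, a density that 6.62% of protein-coding genes reached, while 21.9% held as many peaks. C/EBPβ was found at Sox7 in MAC at -1237 bp and 24040 bp, and the latter and the PU.1 peak at 24041 bp were nearer to 4930578I06Rik as well.

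Sox18 (chr2:181669837-181671640, minus strand) held no peak before MAC in these lists, like 48.1% of protein-coding genes. In MAC it held 7 PU.1 peaks, or 16.7 per 100 kb, and 3 C/EBPβ peaks. As many PU.1 peaks were held by 28.1% of protein-coding genes, and 6.99% were as dense. For C/EBPβ these shares were 46.4% and 19.1%. A C/EBPβ peak was centred at 429 bp in coding exon 1, and a PU.1 peak lay at -3958 bp. These were the 2 of its 10 peaks for which Sox18 had the nearest start site. The others were nearer to Gm29797, Tcea2 or Rgs19, in a gene-rich stretch that also holds Prpf6.

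Sox17 (chr1:4490928-4497426, minus strand) had no peak in its window in any of the 14 lists, and 18.2% of protein-coding genes were likewise without one. The nearest peak was a C/EBPβ peak in MES at -34980 bp, for which Sox17 had the nearest coding start site. In MAC the nearest PU.1 peak was at -50152 bp and the nearest C/EBPβ peak at 82502 bp.

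**Figure D4:**
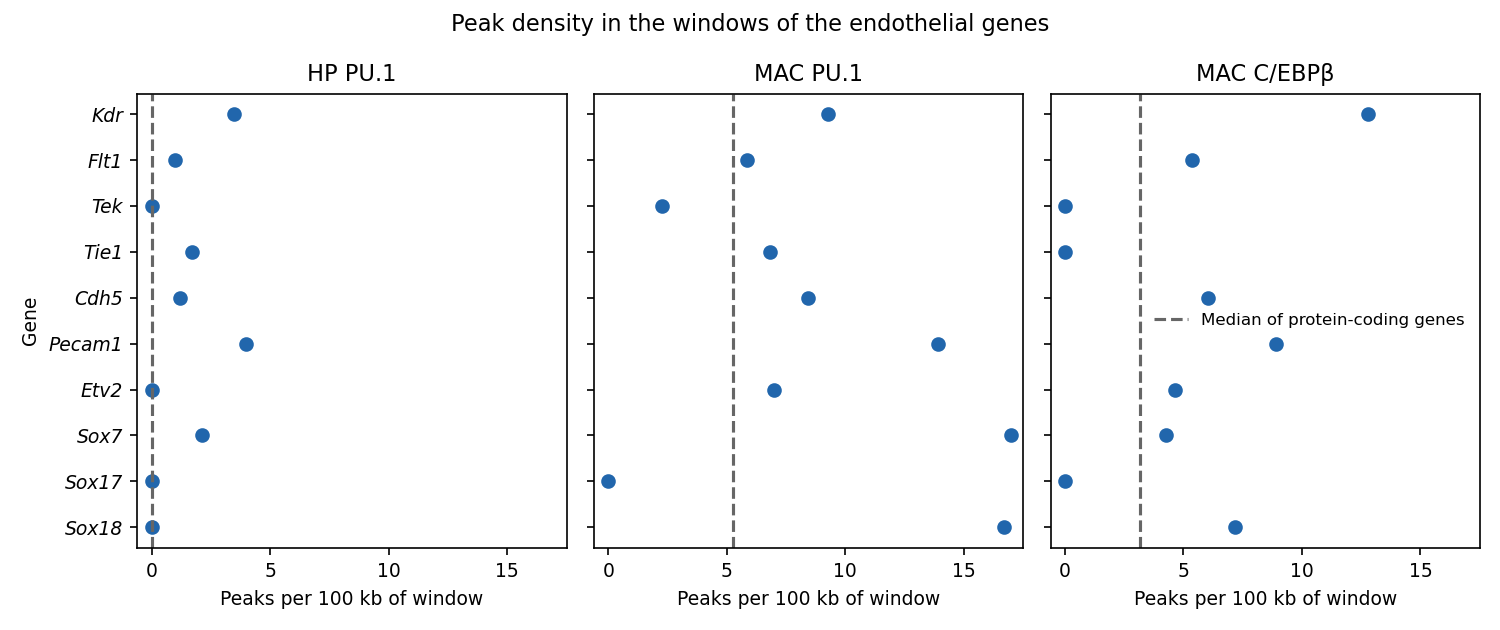
Peaks per 100 kb of window for each gene in the lists of HP PU.1, MAC PU.1 and MAC C/EBPβ, with the median of protein-coding genes as a dashed line. In MAC PU.1, Sox7 (17.0), Sox18 (16.7) and Pecam1 (13.9) lie farthest to the right and Sox17 (0) and Tek (2.27) to the left of the median of 5.24.

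Per 100 kb of window, the median of the 10 genes was 7.72 PU.1 peaks in MAC beside 5.24 for protein-coding genes, and 5.02 C/EBPβ peaks in MAC beside 3.17. For PU.1 in HP, it was 1.09 beside 0, since most protein-coding genes held no such peak. Pooled over all windows, HP PU.1 had 1.35 peaks per 100 kb at the 10 genes and 0.726 at protein-coding genes. In MAC PU.1 the genes were ordered as Sox7, Sox18, Pecam1, Kdr (9.28), Cdh5 (8.44), Etv2 (6.99), Tie1 (6.82), Flt1 (5.86), Tek and Sox17. The order was different for MAC C/EBPβ, where Kdr (12.8) and Pecam1 (8.9) came first and Tek, Tie1 and Sox17 had 0. These are counts of 14 peaks or fewer in single lists, and neighbours in either order cannot be separated.

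The next question was whether sites used in earlier cells were used again in macrophages. All 12 HP PU.1 peaks at these genes overlapped a MAC PU.1 peak (100%, exact Clopper-Pearson 95% interval 73.5% to 100%, counting error only), and in the whole list 97.0% did. At these genes the share was 91.7% when an overlap of 200 bp or more, or centres within 100 bp, were required. All 3 HP C/EBPβ peaks overlapped a MAC C/EBPβ peak (29.2% to 100%), beside 91.4% of that list. A MAC C/EBPβ peak overlapped 8 of the 12 HP PU.1 peaks (66.7%, 34.9% to 90.1%), beside 36.0% of the whole list. Of the MAC PU.1 peaks at these genes, 16 of 67 (23.9%, 14.3% to 35.9%) overlapped one, beside 28.5%. In the other direction, 12 of the 67 MAC PU.1 peaks at these genes (17.9%, 9.61% to 29.2%) overlapped an HP PU.1 peak, beside 12.8% of the MAC list.

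Merging all overlapping peaks gave 96 regions in the 10 windows. Of these, 77 (80.2%) were bound in MAC alone, with 45 bound by PU.1, 24 by C/EBPβ and 8 by both, and in the whole series 85.3% of regions were in MAC lists alone. Of the 19 regions bound before MAC, 17 (89.5%) were bound in MAC too, beside 84.0% in the whole series. The 2 that were not were the GFI1B sites of Pecam1 at -273 bp and Sox7 at 22396 bp. Regions in at least 3 lists numbered 14, or 14.6%, beside 5.44% of all 117293 regions of the series. They belonged to Kdr, Flt1, Cdh5, Pecam1 and Sox7. By position, 42 of the 96 regions were centred in introns, 29 upstream, 21 downstream, 2 in coding exons and 2 in 3′ UTRs, and 11 lay within 2 kb of the start site. The start site of the gene itself was the nearest for 64 (66.7%).

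The consensus of the factor was found in the peaks at these genes about as often as in the whole lists for the lists with the most peaks. GAGGAAGT was in 5 of 12 HP PU.1 peaks (41.7%, 15.2% to 72.3%) beside 42.1% of that list, and in 19 of 67 MAC PU.1 peaks (28.4%, 18.0% to 40.7%) beside 24.4%. TTGCNNAA was in 17 of 43 MAC C/EBPβ peaks (39.5%, 25.0% to 55.6%) beside 41.9%. All 6 C/EBPβ peaks from MES, HB and HP contained it, beside 61.3%, 59.2% and 64.0% of these lists, but they cover only 3 places in the genome. AGATAA was in 2 of 3 HP GATA2 peaks beside 57.9%. AATCNNNGC was in 1 of 5 HP GFI1B peaks (20.0%, 0.505% to 71.6%) beside 44.9%, and TGTGGTT was not in the single RUNX1 peak, beside 26.2%.

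Other genes of the same pathways gave a frame for these values. Of 11 genes for VEGF and angiopoietin ligands and further receptors, none was bound by C/EBPβ in MES, HB or HE (6.47%, 4.24% and 0.684% of protein-coding genes) or by GATA2 or GFI1B in HP (3.36% and 11.8%). In HP, PU.1 bound 6 of the 11 (Angpt1, Flt4, Nrp1, Nrp2, Pgf and Vegfb), or 54.5% beside 38.2% of protein-coding genes, and C/EBPβ bound 3 (Angpt1, Flt4 and Ptprb), or 27.3% beside 14.8%. In MAC, PU.1 bound 11 (79.1% of protein-coding genes) and C/EBPβ 10 (73.8%). Of 20 further endothelial genes, HP PU.1 bound 14, or 70.0% beside 38.2%, and HP GFI1B 7, or 35.0% beside 11.8%. The latter were Egfl7, Erg, Esam, Nos3, Notch1, Ramp2 and Robo4. GATA2 bound Eng and Erg in HP (10.0% beside 3.36%) and Erg in HB (5.0% beside 0.363%). GATA1 bound Eng and Plvap in HP (10.0% beside 1.75%), and RUNX1 bound Esam, Nos3 and Plvap (15.0% beside 7.79%). C/EBPβ bound Dll4, Esam and Fli1 in MES (15.0% beside 6.47%) and these with Aplnr in HP (20.0% beside 14.8%). It bound none of the 20 in HB or HE (4.24% and 0.684% of protein-coding genes). ELK4 bound Eng, Ephb4 and Notch1 in MES (15.0% beside 4.66%). In MAC, PU.1 bound 19 of the 20 (beside 79.1% of protein-coding genes) and C/EBPβ 17 (85.0% beside 73.8%). Clec14a was the only one of the 20 without a peak in MAC PU.1.

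The genes of the remaining sorting markers were set beside Kdr and Tek. Itga2b, which encodes CD41, was bound in HP by GATA2 (1 peak) and PU.1 (2 peaks), and in MAC by PU.1 (5 peaks) and C/EBPβ (2 peaks). Itgam, which encodes CD11b, was bound in HP by PU.1 (3 peaks) and C/EBPβ (1 peak), and in MAC by 19 and 10 peaks of the same factors. Among the lists used here, Kit and the Brachyury gene held peaks in MAC only, and 48.1% of protein-coding genes likewise held none from MES to HP. The paper names Kit among the genes bound by TEAD4 in Flk1+ hemangioblasts, and TEAD4 was not analysed here. The peak lists hold no expression values, and expression was not used here to check the identity of the sorted cells.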

How the data were processed

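ChIP-seq peaks were analysed for 7 TFs in 5 sorted populations, with 1 deposited list for each of 14 combinations and no replicates. The authors trimmed reads with CutAdapt, aligned them with Bowtie to mm10 (GRCm38), kept reads with a unique position, removed duplicates with Picard and called peaks with MACS against the input of the same stage. The p-value cutoff was set by eye at known genes, separately for each list, and the length of a list is therefore no measure of how much a factor bound. The polyPeak package then refined the peaks, which were given 1 width around the summit, and some samples pooled technical sequencing runs. The HE immunoprecipitations, made from few cells, contained recombinant histone 2B and mouse mRNA as carriers. The submitters' processing notes also name bedtools. Tool versions are not given in the sources used here. Each line of the deposited lists gives a chromosome with a start and an end in base pairs, and no score, height or p-value. Sequencing depth was not used here. All 158488 peaks were 400 bp wide, 0 ended beyond a GRCm38 chromosome, and 1 lay on an unplaced sequence and was left out of gene and sequence counts.

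From these, peaks overlapping the RefSeq GRCm38 span of each gene with 20 kb added on each side were counted (at least 1 bp), beside the same count for all 21774 protein-coding genes. Place in a gene was taken from its longest curated transcript. Peaks that overlapped, from whichever list, were joined into regions. With 1 list in a group no test was run. Intervals of shares are exact Clopper-Pearson intervals at 95% and take in counting error alone. The text names all 10 genes, every peak found before MAC or by a factor other than PU.1 and C/EBPβ in MAC, the region of each gene in the most lists, and the peak nearest to its start site. The genes, the gene lists, the consensus sequences and the questions were chosen with earlier results of these data known. The percentages of protein-coding genes with the same combination of factors as Kdr, Flt1 or Sox7, and with 8 or more lists, none, or none before HP or MAC, were added after their peaks were seen. Alternatives changed the added span, the overlap, the gene to which a peak is given, the lists and the gene background. The counting was tested on simulated peaks. Calculations used Python 3.11.15, NumPy 2.4.6, pandas 2.3.3, SciPy 1.17.1, pysam 0.24.0 and Matplotlib 3.10.9. For 1 gene window, the gene nearest to some peaks is not reported here.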

Additional observations from a re-analysis of the deposited data

How the results depend on the processing

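Of 224 alternative values, 159 stayed within 1.5 times the main value (or, for a percentage, within its interval) and 65 did not. The number of bound combinations of gene and list was 32. It was 21 with the gene spans alone and 16 without the MAC lists of PU.1 and C/EBPβ. The 137 peaks became 70 with the gene spans alone, 241 with 50 kb added on each side and 27 without those MAC lists. The numbers of genes bound by HP PU.1 (4 to 6), MAC C/EBPβ (5 to 9) and MAC PU.1 (7 to 10), the 3 shares of overlapping peaks and the 96 merged regions stayed within these limits under every alternative run on them. With 50 kb added, Sox17 had 2 peaks and HP GFI1B bound 5 genes, and with the gene spans alone HP GFI1B bound 1. With the gene spans alone, the only gene bound by HB C/EBPβ (Flt1) and the only gene bound by HP RUNX1 (Sox7) were lost, leaving 0. HP C/EBPβ bound 1 gene in place of 2 with the gene spans alone or 10 kb added and 4 with 50 kb, and 1 when each peak was given to the nearest start site, since the peak in the window of Etv2 is nearest to Upk1a. HP GATA1 bound 0 genes under every span and assignment. With all 49598 annotated RefSeq genes as the background, the percentage bound was lower in 13 of 14 lists (HP PU.1 28.1%, MAC PU.1 67.4%) and higher for HE C/EBPβ (0.96%).

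A stricter peak threshold could not be tried, because the lists hold no scores. Leaving out a replicate was not possible with 1 list in each group. No paired analysis was possible because no group has a second list. Sequencing depth was not used here, and the cutoff differed between lists, so a missing peak in a short list such as HE C/EBPβ (132 peaks) does not show that the site was free.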
